A study of Gasterosteus aculeatus with 53 samples.

Results

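The 150 genes described here are those whose brain expression in female threespine sticklebacks (Gasterosteus aculeatus) followed trial number most closely, that is, the number the labels give to the behavioural trial of each fish. For every gene, the log2 of its level in CPM (counts with each library scaled to a total of 1000000, with 0.5 added) and the trial number had their means within each of the 9 groups of fish subtracted, and the genes were ranked by Pearson's r between the results. The table holds 22456 genes, of which 17565 averaged at least 1 CPM and were ranked, and the 150 with the highest r are the members. The members were thus chosen by their trial trends over 51 libraries, so these trends are given as a description and without a test.

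Each library was the whole brain of 1 wild-caught female carrying ripe eggs, dissected after 20 minutes with a stimulus fish or at spawning, whichever came first. Females came from the limnetic population of Paxton Lake, the limnetic population of Priest Lake and the benthic population of Paxton Lake, where limnetic fish feed in open water and benthic fish near the bottom. Each had been with a conspecific male, a heterospecific male from her own lake, or, as the social control, a female of her own lake and species. The libraries used numbered 6 conspecific, 6 heterospecific and 6 social control for Paxton limnetic females, 5, 6 and 6 for Priest limnetic females, and 5, 5 and 6 for Paxton benthic females. The labels give no age, no calendar date and no extraction or library batch, so trial number and any such order cannot be told apart. The study ran its trials from May to August and had RNA extracted from the stored brains afterwards, in September. It sequenced all samples as a single multiplexed library. It reports RNA integrity scores for most samples, and these were not used here.

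The library labelled Priest limnetic of trial 9 and the library labelled Paxton benthic of trial 83, both from the conspecific treatment, appeared swapped to the study and were left out by the rule. For 1 Paxton benthic conspecific library the labels disagree on the trial, with 89 in the title and 88 in the description, and 88 was used. Total counts ranged from 23849743 to 52788436 over the 51 libraries (median 38862402), and every member had at least 32 reads in every library. After subtraction of group means, trial number had an r of -0.03 with the log2 total count (two-sided permutation test with 100000 resamples, p = 0.857), with a Spearman's rho of 0.02 (p = 0.885) and an r of -0.04 without the 2 libraries farthest from the median trial. For the number of genes with a count these values were -0.03 (p = 0.890), 0.23 (p = 0.124) and -0.05, and for the share of counts in the 50 most abundant genes -0.15 (p = 0.299), -0.09 (p = 0.543) and -0.19, each p from the same permutation test. Over these 3 relations, the lowest adjusted p was 0.890 for r and 0.373 for rho. Of the 50 most abundant genes, 4 were members, which were chosen to rise with trial number. Without these 4, the share had a median of 12.7% in trials 10 to 31 (11.3% to 15.1%). It was 10.9% in trials 33 to 88 (8.64% to 14.5%) and 13.1% in trials 89 to 91 (12.4% to 13.3%). These differences were not tested.

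RNA of a whole brain pools neurons, glia, vessels and blood, so a gene's level reflects both how many cells of each type are present and how much RNA each holds. In such bulk samples fewer cells of a type and less RNA per cell cannot be told apart. Capture by the poly(A) tail, used here, selects mature messenger RNA and other transcripts that carry such a tail. The deposited table gives only gene identifiers, and 0 of them could be paired with a symbol in the reference table used here, so the members are described by their levels and their behaviour across fish. Their roles, the markers of brain cell types and the pathway lists were not analysed here.

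Over the members, r with trial number ranged from 0.664 to 0.815 (median 0.714), while its median over the 17565 ranked genes was 0.02. The last members inside the limit had an r of 0.666465, 0.666428 and 0.664039, and the first genes outside it 0.663597, 0.663499 and 0.66309, so the limit does not mark a break. At the other end, 34 genes had an r as far below 0 as the last member's was above it. The slope of the members had a median of 0.097 on the log2 scale per 10 trials, with a range of 0.041 to 0.32. Within Paxton limnetic, Priest limnetic and Paxton benthic females alone, 150 of 150 members had a positive r, with medians of 0.734, 0.737 and 0.762. The same held for 150 of 150 within the conspecific, heterospecific and social control fish, with medians of 0.718, 0.744 and 0.766. These subsets are parts of the libraries the rule ranked on, so both counts follow largely from the choice of members. Of all ranked genes, 52.3%, 50.8% and 55.4% had a positive r in these populations, and 52.3%, 52.4% and 55.3% in these treatments. The members were more abundant than most genes, with a median level of 74.4 CPM where all ranked genes had 22.0, and they spanned 2.68 to 4334 CPM. Whether a choice by r itself favours abundant genes was not tested.

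The members fell into 2 kinds by the size of their difference between 2 ranges of trials. Between the median of trials 10 to 31 (16 libraries) and the median of trials 33 to 88 (32 libraries), 28 members differed by 2.50-fold to 4.09-fold, here called step members, and 122 by 1.07-fold to 1.67-fold, here called graded members. No member lay between 1.67-fold and 2.50-fold. The remaining 3 libraries, of trials 89 to 91, form the last range. The ranges and the 2 kinds were set after the values had been seen and are used as a description. In 27 of the 28 step members every value of trials 33 to 88 lay above every value of trials 10 to 31, as it did in 0 of the 122 graded members. Over all ranked genes this held for 30 of 17565, or 0.171%, and the opposite for 0. A difference over 2-fold was found in the 28 step members and in 49 of the 17565 ranked genes, or 0.279%. Since trial number chose the members, these shares are given for scale only.

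**Figure D1:**
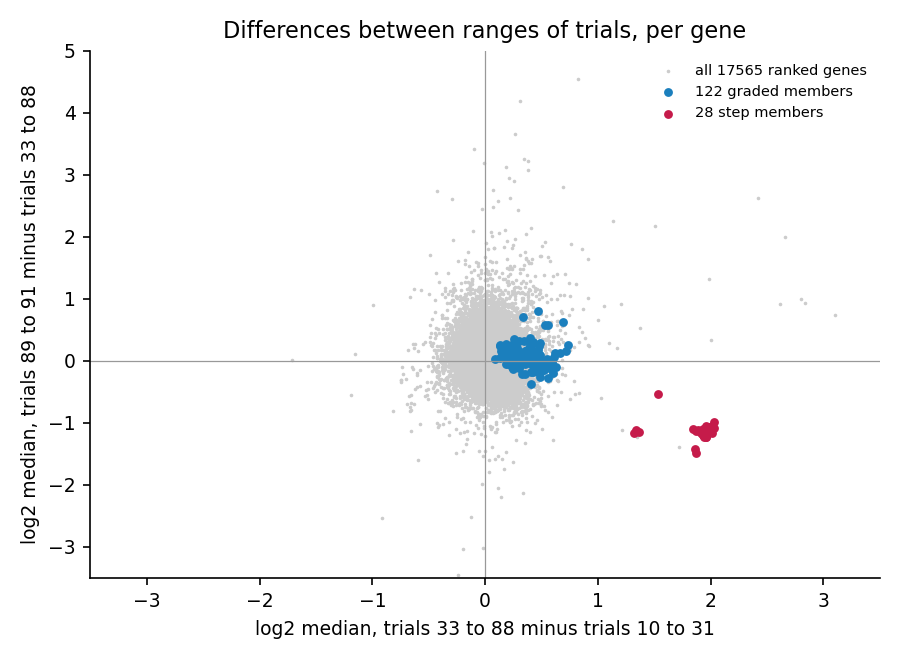
Difference of log2 median CPM between trials 33 to 88 and trials 10 to 31 (x axis) and between trials 89 to 91 and trials 33 to 88 (y axis), 1 point per gene, with all 17565 ranked genes in grey, the 122 graded members in blue and the 28 step members in red. The step members lie apart at the lower right, from 1.32 to 2.03 on the x axis and below 0 on the y axis, while the graded members lie between 0.092 and 0.74 on the x axis and on both sides of 0 on the y axis.

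The 28 step members stood at separate levels in the 3 ranges. Their summed level was 5406 to 8555 CPM (median 6487) in trials 10 to 31, 18597 to 53588 CPM (median 24949) in trials 33 to 88, and 11054, 11455 and 10347 CPM in trials 89, 90 and 91. No library of one range reached into another with trial 88 taken for the library whose labels disagree. Between the neighbouring trials 31 and 33 the sum was 5741 and then 21599 CPM, a 3.76-fold difference, the largest between any 2 neighbouring trials. The trial 31 fish was a Paxton benthic female with a heterospecific male and the trial 33 fish a Paxton limnetic social control. Between trials 88 and 89, both from Paxton benthic females, it was 29785 and then 11054 CPM, or 0.371-fold. The library at 29785 CPM is the one titled trial 89, and if the title is right both values come from trial 89 and the number does not separate them. Changes of similar size inside the middle range came from 1 library, that of trial 45, at 2.60-fold between trials 44 and 45 and 0.347-fold between trials 45 and 49. As a share of all counts in a library, the step members took 0.541% to 0.856% in trials 10 to 31, 1.86% to 5.36% in trials 33 to 88 and 1.03% to 1.15% in trials 89 to 91.

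**Figure D2:**
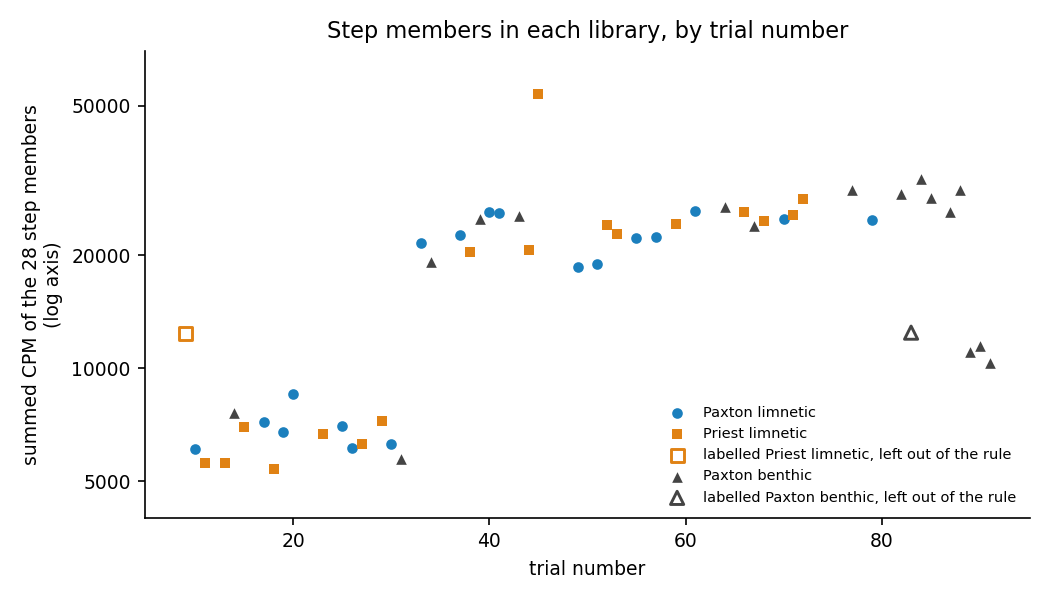
Summed CPM of the 28 step members (y axis, log scale) against trial number (x axis), 1 point per library, by population, with open symbols for the 2 libraries the rule left out. The 16 libraries of trials 10 to 31 lie between 5406 and 8555 CPM, the 32 of trials 33 to 88 between 18597 and 53588 CPM, and the 3 of trials 89 to 91 between 10347 and 11455 CPM.

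The most abundant step member, ENSGACG00000000576, averaged 4334 CPM and ranked 116 among the members (r = 0.684). It ranged from 1185 to 1955 CPM (median 1449) in trials 10 to 31 and from 4030 to 13249 CPM (median 5830) in trials 33 to 88, a 4.02-fold difference of medians. In trials 89, 90 and 91 it stood at 2603, 2681 and 2446 CPM, 0.447 times the median of trials 33 to 88. Its values in the 3 ranges did not overlap. A straight line described this course as a slope of 0.29 per 10 trials on the log2 scale (standard error 0.048, with group means). Within trials 10 to 31, r with trial number had a median of 0.07 over the step members and was above 0 in 22 of 28. Within trials 33 to 88 the median was 0.44 with 28 of 28 above 0. Of all ranked genes, 44.8% and 54.3% were above 0 in these ranges. Both ranges hold libraries the rule ranked on, so the counts are a description.

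In trials 89 to 91 the median of 28 of 28 step members was below that of trials 33 to 88, by 0.358-fold to 0.689-fold (median 0.455). These 3 fish were all Paxton benthic, 2 social controls and 1 with a heterospecific male, and Paxton limnetic and Priest limnetic females had no trial in this range. Whether limnetic fish would have shown the same levels in these trials is not known, since population and range are not separated there. The left-out libraries labelled Priest limnetic and Paxton benthic, described below, summed to 12369 and 12442 CPM, near the levels of these trials. The transition between trials 31 and 33, in contrast, was crossed by all 3 populations, with 7 and 11 Paxton limnetic, 7 and 10 Priest limnetic, and 2 and 11 Paxton benthic libraries in the first and second range. Both Paxton benthic libraries of the first range were heterospecific, with 2 heterospecific libraries in the second. Benthic conspecific and social control females had none in the first range.

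Levels of step members also varied together from library to library. After a line in trial number and the group means were removed, the median r between pairs of step members was 0.966 over the 51 libraries. The jumps that define these genes stay in such values, so this r follows from how the kinds were set. Between graded members it was 0.456, between step and graded members 0.184, and between all ranked genes 0.009. Within trials 33 to 88 alone, with group means removed but no line, the medians were 0.809 for step members, 0.619 for graded members, 0.288 for pairs across the kinds and 0.004 for all ranked genes. Without the library of trial 45, left out after seeing the data, they were 0.840 for step members, 0.638 for graded members and 0.003 for all ranked genes. The members share a choice by trial trend, so these values are a description. The ratios between the 3 most abundant step members, at means above 4000 CPM, varied less than 2-fold over the libraries used. ENSGACG00000000576 stood at a median of 1.01 times ENSGACG00000001396 (0.756 to 1.18) and 1.13 times ENSGACG00000018064 (0.790 to 1.21). ENSGACG00000001396 stood at 1.11 times ENSGACG00000018064 (0.689 to 1.22), and without the library of trial 45 this range was 0.896 to 1.22. The files do not say whether such genes share reads, for instance as near-identical copies, so the level of each single gene among them is uncertain.

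One library stood apart among the step members. The Priest limnetic social control of trial 45 had a summed level of 53588 CPM, where the next highest library, a Paxton benthic social control of trial 84, had 31884 CPM. In that library ENSGACG00000000576 was at 13249 CPM, and the remaining 25 step members summed to 0.290 times the 3 most abundant ones. In the other libraries used this ratio was 0.460 to 0.525, so the 3 most abundant genes were higher there relative to the rest. The graded members of that library deviated by 0.01 from their means, well inside the range of trials 33 to 88.

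The step members also differed from the graded ones in their identifiers, which the rule did not use. The number in the identifier was above 21000 in 22 of 28 step members, 1 of 122 graded members and 58 of the 17565 ranked genes. The limit of 21000 was not planned beforehand, and the kinds had been set after the values were seen. The files do not say what sets these identifiers apart.

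The 122 graded members had small differences that continued over the later trials. The member with the highest r of all, ENSGACG00000002958 (r = 0.815, mean 54.8 CPM), ranged from 31.6 to 50.4 CPM (median 41.0) in trials 10 to 31 and from 36.9 to 82.6 CPM (median 59.8) in trials 33 to 88. In trials 89, 90 and 91 it stood at 71.0, 58.8 and 59.4 CPM. Unlike in the step member, the ranges overlapped, and the values of trials 89 to 91 lay inside those of trials 33 to 88. All fish of trials 89 to 91 were Paxton benthic. The social controls of trials 89 and 91 compare with 51.3, 72.8, 79.0 and 79.4 CPM in those of trials 39, 82, 84 and 87. The heterospecific fish of trial 90 compares with 64.0 and 66.2 CPM in those of trials 77 and 85. These differences were not tested. Its slope was 0.129 per 10 trials on the log2 scale (standard error 0.014, with group means). Low values among the later fish came from trials 34 and 41, at 36.9 and 37.1 CPM, and the highest from trials 70 and 72, at 82.6 and 81.7 CPM.

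**Figure D3:**
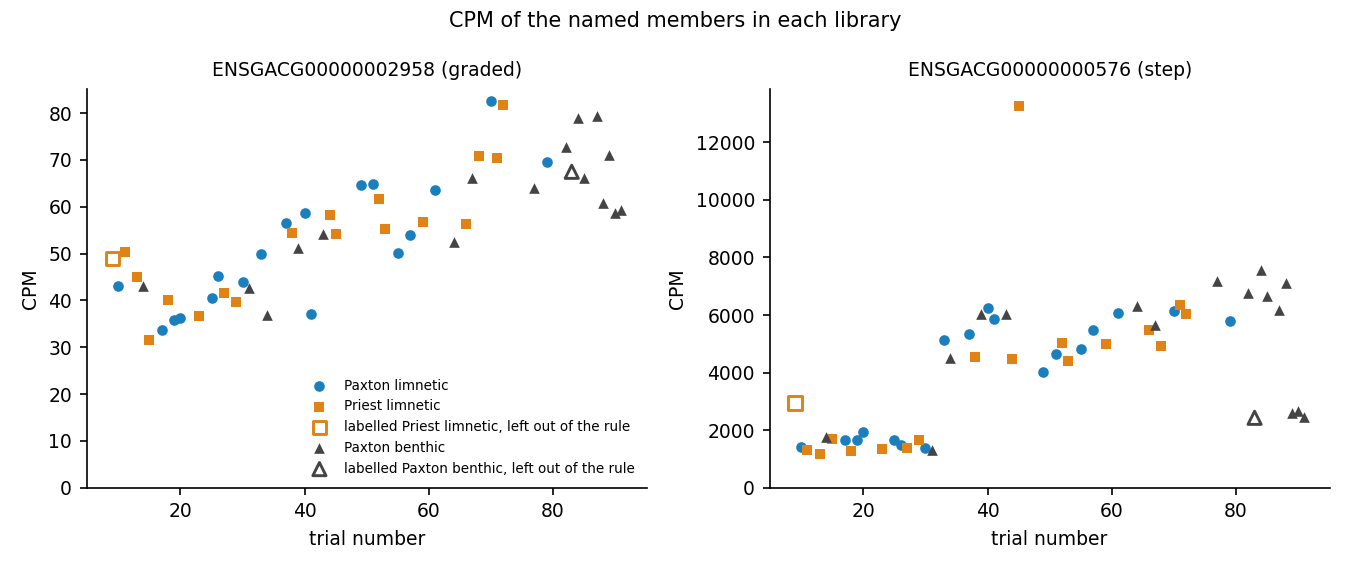
CPM (y axis) of ENSGACG00000002958, a graded member, and ENSGACG00000000576, a step member, against trial number (x axis), 1 point per library by population, with open symbols for the 2 libraries left out of the rule. Among the libraries used, the graded member spreads from 31.6 to 82.6 CPM with overlap between early and late trials. In them the step member lies at 1185 to 1955 CPM before trial 33 and at 4030 CPM or more in trials 33 to 88. Its open symbols lie at 2947 CPM (labelled trial 9) and 2432 CPM (labelled trial 83).

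Taken as 1 value per library, the median deviation of the 122 graded members from their means over the 51 libraries was -0.61 to 0.07 on the log2 scale (median -0.23) in trials 10 to 31. It was -0.41 to 0.37 (median 0.12) in trials 33 to 88, and 0.26, 0.10 and 0.16 in trials 89, 90 and 91. The course was not even. In trials 10, 11 and 13 the deviations were -0.20, 0.07 and -0.07, and in trials 15, 17 and 18 they were -0.45, -0.61 and -0.37. Accordingly, within trials 10 to 31 only 20 of 122 graded members had a positive r with trial number (median -0.22). Within trials 33 to 88 the count was 122 of 122 (median 0.65). Of all ranked genes, 44.8% and 54.3% had a positive r in these ranges. The rule ranked on the libraries of trials 33 to 88 too, so the count there follows largely from the choice. In trials 89 to 91 the median of 46 of 122 graded members was below that of trials 33 to 88, 0 of them by more than 0.5 on the log2 scale. This sets Paxton benthic fish against all populations pooled. Among Paxton benthic social controls the deviations were -0.10, 0.29, 0.29 and 0.27 in trials 39, 82, 84 and 87, then 0.26 and 0.16 in trials 89 and 91. In the heterospecific fish of trials 77, 85 and 90 they were 0.13, 0.23 and 0.10. These differences were not tested.

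**Figure D4:**
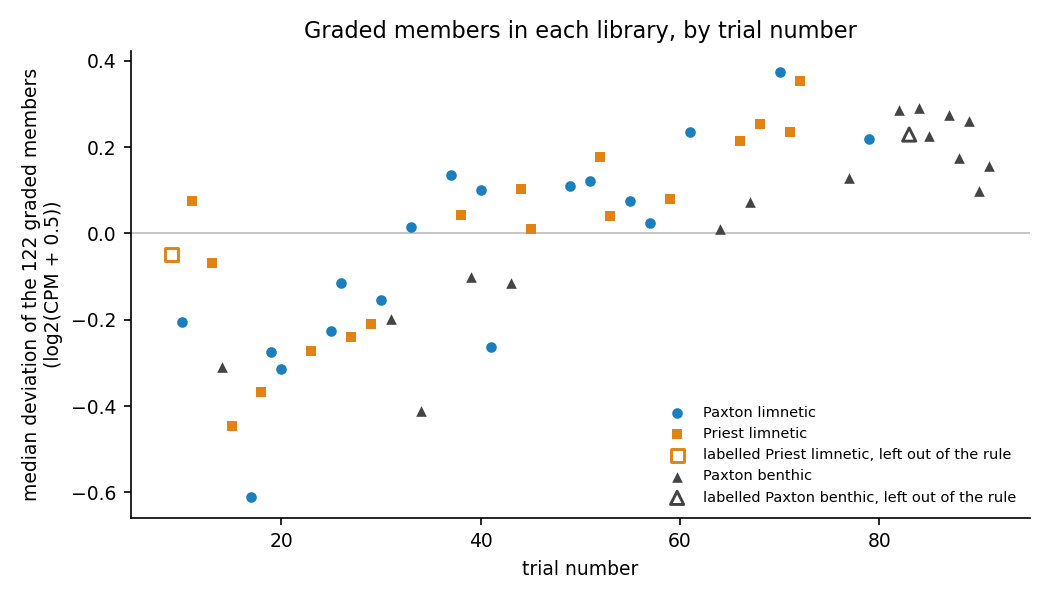
Median over the 122 graded members of the deviation of log2(CPM + 0.5) from each gene's mean over the 51 libraries (y axis) against trial number (x axis), 1 point per library by population, with open symbols for the 2 libraries left out of the rule. The lowest value, -0.61, is at trial 17 and the highest, 0.37, at trial 70, and the libraries of trials 89 to 91 lie between 0.10 and 0.26.

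The 2 libraries that the rule left out give the same measures in fish it did not use. The step members summed to 12369 CPM in the library labelled trial 9 and to 12442 CPM in the library labelled trial 83, next to the 10347 to 11455 CPM of trials 89 to 91 and outside the values of both other ranges. Of the 28 step members, 20 in the library labelled trial 9 and 22 in the library labelled trial 83 lay between the highest value of trials 10 to 31 and the lowest of trials 33 to 88. Over all ranked genes this held for 20 and 24 of 17565 genes in these libraries. Only a gene whose values in the 2 ranges do not overlap can meet this. That was so in 27 of 28 step members and in 30 of 17565 ranked genes. The count over all genes was thus largely set by how the step members were defined and is no background for them. The graded members deviated by -0.05 in the library labelled trial 9 and by 0.23 in the library labelled trial 83. Above the median of the 51 libraries were 40 of 122 graded members in the library labelled trial 9 and 112 of 122 in the library labelled trial 83, where all ranked genes gave 50.8% and 51.6%. Since the labels of this pair are in doubt, these values are not set against a trial number.

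Whether the trend differed between the populations was tested as a difference of slopes (edgeR quasi-likelihood test with group means, called at an adjusted p-value under 0.1 over 20011 genes). It was called in 0 of 150 members and in 0 of 20011 genes (0%), with 28 members and 939 genes (4.69%) at an unadjusted p under 0.05. Of those 28 members, 24 were step members. DESeq2 also called 0 members, and 19 genes. The slopes per 10 trials had medians, for Paxton limnetic, Priest limnetic and Paxton benthic females in turn, of 0.376, 0.436 and 0.132 over the step members and of 0.097, 0.089 and 0.072 over the graded members. Only the benthic fish include trials 89 to 91, in which the step members were low. With the 3 ranges as a factor, chosen after seeing the data, 5 members were at an unadjusted p under 0.05, 2 of them step members, where 3.22% of all genes were, and 0 were called. The members were chosen by slopes pooled over these same libraries, so the counts of slope differences are a description. They are not read against the shares of all genes.

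Whether the trend departed from a straight line was tested with the square of trial number. This term was called in 31 of 150 members, 29 of them with a negative sign, where 7.51% of all 20011 genes were called (3.21% positive and 4.29% negative). It was called in 27 of 28 step members, all negative, and in 4 of 122 graded members, 2 negative and 2 positive. The members and the kinds were chosen on the same levels and trial numbers, so these counts describe the shape of the trends and nothing is read from them against the share of all genes. The term was called in 0 members with the 3 ranges as a factor, with 7 at an unadjusted p under 0.05 (4.34% of all genes), and in 1 gene of 20011.

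Group means were subtracted before the members were chosen, so their levels between populations were not used by the rule. Their spread within groups was used, because a trial trend is part of that spread. In a fit with no trial term this spread enters the error, which can lower the number of members called. Such counts are therefore not read against the share of all genes. A fit with trial number as a covariate uses the slopes by which the members were chosen. Populations were compared in the model of the study, with independent effects of treatment and population. For Paxton limnetic over Paxton benthic females, 26 of 150 members were called, 1 higher and 25 lower in the limnetic fish, where 35.6% of all 20011 genes were called (17.1% higher and 18.4% lower). The median log2 fold change was -0.13 over the members and 0.01 over all genes. Graded members made up 25 of the 26.

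Trial numbers were not balanced between populations, and the members were chosen to follow them. The median trial was 38.5 for Paxton limnetic and 44 for Priest limnetic fish, against 79.5 for Paxton benthic fish. With trial number as a covariate, 56 members were called, 50 higher and 6 lower (29.8% of all genes were called, 14.5% higher and 15.3% lower). Only 7 members were called in both fits, 0 of them with the other sign, so most calls of the 2 fits were of different genes. The fold change had the other sign with the covariate in 7 of the 26 members called without it, and in 111 of all 150 members. The median log2 fold change was then 0.16. The members were chosen for rising slopes, and adjusting for such slopes raises the fold change of fish from earlier trials. The shift upward is therefore not read against the share of all genes. With the 3 ranges as a factor, 30 members were called, 6 higher and 24 lower (27.9% of all genes, 13.4% higher and 14.5% lower). On trials 33 to 88 alone they were 32 members, 5 higher and 27 lower (22.6% of all genes, 10.4% higher and 12.2% lower). Both settings were chosen after seeing the data, and both leave trial number uneven between the populations within trials 33 to 88. Since the direction of the counts depended on how trial was handled, the levels that follow are those of single members.

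The largest called difference in this comparison was in ENSGACG00000010269, a graded member. It had 110 ± 27.7 CPM (SD, n = 18) in Paxton limnetic females, with values from 73.8 to 170.1 CPM, against 215 ± 37.6 CPM (SD, n = 16) in Paxton benthic females, with values from 152.6 to 280.3 CPM. The edgeR log2 fold change was -0.96 ± 0.11 (SE) with an adjusted p of 5.02e-10, and only the upper end of the limnetic values overlapped the benthic ones. It stayed lower with trial number as a covariate (-0.72, adjusted p = 1.15e-08 from edgeR) and on trials 33 to 88 alone (-0.90, adjusted p = 1.42e-06 from edgeR). In Priest limnetic females the same gene had 96.8 ± 26.3 CPM (SD, n = 17), and edgeR gave -1.15 ± 0.11 (SE) on the log2 scale against the same benthic fish (adjusted p = 4.12e-12). Its slope within groups was 0.099 per 10 trials on the log2 scale (standard error 0.016).

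The second largest, the step member ENSGACG00000021894, had 9.15 ± 4.44 CPM (SD, n = 18) in Paxton limnetic females, against 17.1 ± 10.3 CPM (SD, n = 16) in Paxton benthic females. The edgeR log2 fold change was -0.85 ± 0.31 (SE) with an adjusted p of 0.0335, but -0.07 with trial number as a covariate (adjusted p = 0.882 from edgeR). On trials 33 to 88 alone it had 12.01 ± 3.10 CPM (SD, n = 11) in Paxton limnetic and 21.4 ± 9.59 CPM (SD, n = 11) in Paxton benthic females, or -0.84 on the log2 scale (adjusted p = 0.0262 from edgeR). The single member called higher was the graded member ENSGACG00000012376, at 59.1 ± 8.29 CPM (SD, n = 18) in Paxton limnetic and 52.8 ± 6.86 CPM (SD, n = 16) in Paxton benthic females. By edgeR it was higher by 0.15 ± 0.07 (SE) on the log2 scale (adjusted p = 0.0837), and the values overlapped over most of their range.

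Between Priest limnetic and Paxton benthic females, 25 members were called, 8 higher and 17 lower in the limnetic fish, all of them graded, where 40.3% of all genes were called (19.9% higher and 20.3% lower). The same benthic libraries serve in both benthic comparisons. The median log2 fold change over the members was -0.08. With trial number as a covariate 68 members were called, 65 higher and 3 lower (36.6% of all genes, 18.3% in each direction). The median over the members was then 0.17, and 11 were called in both fits. As within Paxton Lake, the shift upward is not read against the share of all genes. With the 3 ranges as a factor 40 were called, 22 higher and 18 lower (35% of all genes, 17.4% higher and 17.5% lower), and on trials 33 to 88 alone 28, 15 higher and 13 lower (25.5% of all genes, 12.8% higher and 12.7% lower). The largest called increase was in the graded member ENSGACG00000004744, at 51.4 ± 10.9 CPM (SD, n = 17) in Priest limnetic females, against 35.7 ± 8.15 CPM (SD, n = 16) in Paxton benthic females. The edgeR log2 fold change was 0.52 ± 0.10 (SE) with an adjusted p of 8.99e-05, and it was 0.76 with trial number as a covariate (adjusted p = 4.24e-09 from edgeR).

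The calls of the step members between populations depended on how the jumps were handled. With the 3 ranges as a factor, 14 of 28 step members were called lower and 0 higher in Paxton limnetic females against the benthic fish of that lake, by -0.67 to -0.15 on the log2 scale. Of all genes, 14.5% were called lower and 13.4% higher. Between Priest limnetic and Paxton benthic females 14 were lower, by -0.49 to -0.20, and 3 higher, by 0.50 to 0.70 (17.5% of all genes lower and 17.4% higher). On trials 33 to 88 alone the counts were 17 lower and 0 higher, and 9 lower and 3 higher. Of all genes, 12.2% were lower and 10.4% higher, and 12.7% lower and 12.8% higher. Trial number was uneven there too, with a last trial of 79 in Paxton limnetic, 72 in Priest limnetic and 88 in benthic females. All 28 step members rose with trial number in this range, so population and trial are not separated there. Over those trials the step members summed to a median of 22631 CPM (18597 to 26211) in Paxton limnetic females and 24442 CPM (20450 to 53588) in Priest limnetic females, against 26804 CPM (19207 to 31884) in Paxton benthic females. The values of the 3 populations overlapped. With trial number as a covariate in place of the ranges, 0 step members were called in the comparison within Paxton Lake and 6 in the comparison across lakes, all 6 higher in Priest limnetic females. Of all genes, 14.5% were higher and 15.3% lower within Paxton Lake, and 18.3% in each direction across lakes. The covariate fit uses the slopes by which the members were chosen. Step members varied together from library to library, so the calls in each fit are not separate results.

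**Figure D5:**
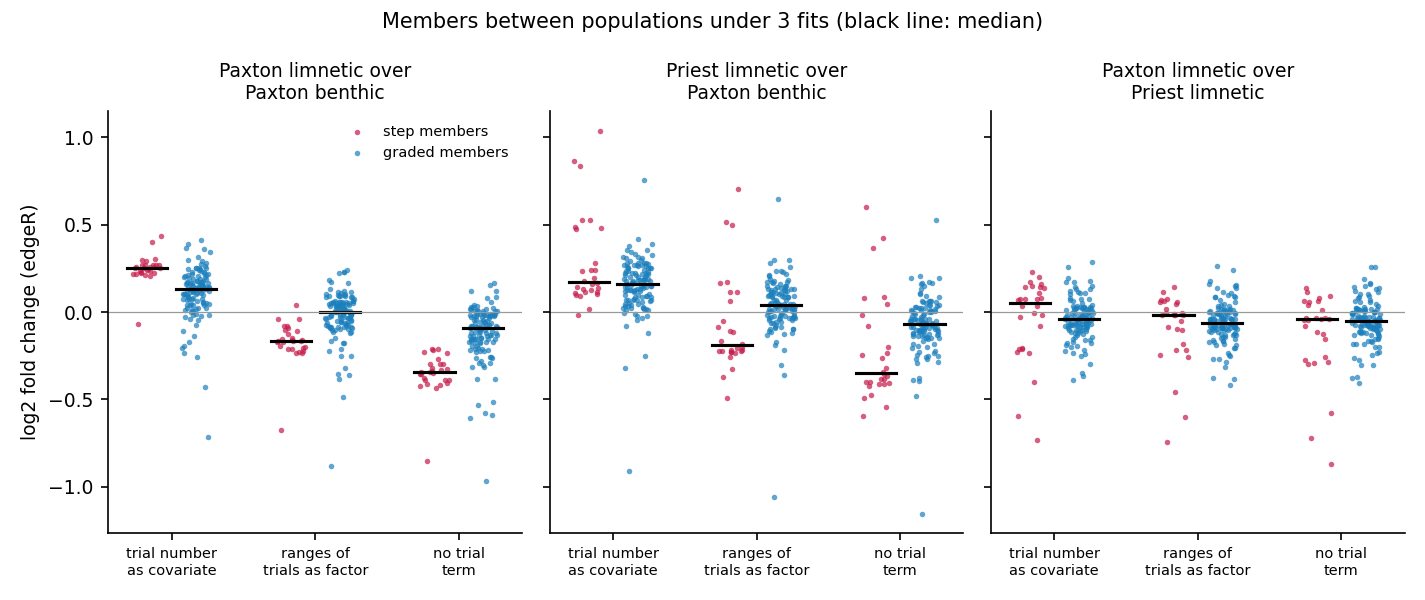
Log2 fold change from edgeR (y axis) of each step member (red) and graded member (blue) in the 3 population comparisons, under 3 fits: with trial number as a covariate, with 3 ranges of trials as a factor, and with no trial term. Black lines are the medians of each kind in each fit. The covariate fit uses the slopes by which the members were chosen. In both comparisons with Paxton benthic females the median of the members is above 0 with the covariate (0.16 and 0.17) and below 0 without a trial term (-0.13 and -0.08), while in the comparison of the limnetic populations it is -0.03 and -0.05.

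The limnetic populations had similar trial numbers, and in their comparison the median of the members was below 0 with and without trial number as a covariate. Between Paxton limnetic and Priest limnetic females 12 members were called, 1 higher and 11 lower in the Paxton fish, where 16.9% of all genes were called (7.84% higher and 9.05% lower). With trial number as a covariate 27 were called, 7 higher and 20 lower (17.9% of all genes, 8.32% higher and 9.59% lower), and all 12 of the first fit were among them. With ranges as a factor 24 were called, 4 higher and 20 lower (18.5% of all genes, 8.43% higher and 10.1% lower), and on trials 33 to 88 alone 14, 1 higher and 13 lower (8.84% of all genes, 3.6% higher and 5.24% lower). The step member ENSGACG00000022905 had the largest called difference. It had 175 ± 92.1 CPM (SD, n = 18) in Paxton limnetic and 320 ± 207 CPM (SD, n = 17) in Priest limnetic females, or -0.87 ± 0.31 (SE) on the log2 scale by edgeR (adjusted p = 0.0524). The values of both populations include both sides of the jump. On trials 33 to 88 alone it had 175 to 350 CPM (238 ± 54.2, SD, n = 11) in Paxton limnetic females, against 365 to 651 CPM (479 ± 90.3, SD, n = 10) in Priest limnetic females, with no overlap. The log2 fold change was then -1.02 (adjusted p = 1.08e-06 from edgeR). The 1 member called higher was the graded member ENSGACG00000000680, at 64.6 ± 12.5 CPM (SD, n = 18) in Paxton limnetic and 53.7 ± 7.84 CPM (SD, n = 17) in Priest limnetic females (higher by 0.26 ± 0.08, SE, on the log2 scale by edgeR, adjusted p = 0.0333).

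Treatments were compared within each population by fitting 1 mean to each of the 9 groups. In these comparisons 0 of 150 members were called by edgeR and 0 by DESeq2. These fits have no trial term, so the trends by which the members were chosen add to the error here too. The counts of 0 are therefore not read as a lack of difference. In Paxton limnetic females edgeR put 9 members at an unadjusted p under 0.05 for conspecific over heterospecific males, 3 for conspecific males over the social control and 0 for heterospecific males over the social control. Of all genes, 6.6%, 2.85% and 4.45% were at that threshold, and edgeR called 0%, 0.075% and 0%. In Priest limnetic females the member counts were 1, 1 and 1, where 3.34%, 4.66% and 7.7% of all genes were at that threshold and 0.005%, 0.02% and 0% were called. In Paxton benthic females they were 0, 26 and 8, where 7.45%, 5.82% and 3.77% of all genes were at that threshold and 0.015%, 0.00999% and 0.03% were called. The smallest adjusted p of any member over the 9 comparisons was 0.597 from edgeR.

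The 26 members at an unadjusted p under 0.05 in Paxton benthic females were all graded. Their number depended on single libraries. Without 1 conspecific library it was 3 (trial 34), 10 (trial 43), 18 (trial 64), 24 (trial 67) or 39 (trial 88), and without 1 social control library it was 14 (trial 84), 16 (trial 82) or 50 (trial 39), with 18 to 24 for the other 3. The members' median log2 fold change of conspecific males over the social control was -0.23 there, against -0.02 over all genes. Trial numbers differed between the same groups, with a median of 64 in the conspecific fish and 85.5 in the social control. With trial number as a covariate the median was -0.07 and 9 members were at an unadjusted p under 0.05 (3.88% of all genes), and with the ranges as a factor it was -0.22 with 57 members (6.29% of all genes). The ranges leave trial number uneven between these groups within trials 33 to 88, where 122 of 122 graded members rose. Members also varied together, so these counts are not of separate results. The step members had wide medians in the treatment comparisons, such as 0.58 for conspecific over heterospecific males in Paxton benthic females. All 5 of those conspecific libraries lay in trials 33 to 88, while the 5 heterospecific libraries were split into 2, 2 and 1 over the 3 ranges. With the ranges as a factor the median was -0.14, and with trial number as a covariate it was 0.80, with 0 step members called in each fit. Within trials 33 to 88 the step members summed to 19207 to 29785 CPM in the 5 conspecific libraries, against 29733 and 28478 CPM in the 2 heterospecific libraries, and these values overlapped.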

How the data were processed

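Brain RNA of 53 females was measured by RNA-seq after poly(A) capture. Per the labels and the methods of the study, the authors trimmed paired reads (Trimmomatic 0.33, after FastQC 0.11.1), aligned them to the Ensembl BROAD S1 stickleback genome with BWA 0.7.7 and counted reads per gene with bedtools 2.23.0, using SAMtools 1.2, as the submitters' processing notes name them. The deposited values are raw counts for 22456 gene identifiers. The counting does not state the use of strand, so overlapping genes are uncertain. Near-identical genes are uncertain too, because the files do not say whether they share reads.

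CPM was computed by column total over each library. Tests used edgeR 4.0.16 in R 4.3.3 (TMM, filter on low counts, quasi-likelihood test, Benjamini-Hochberg over 20011 genes), with calls at an adjusted p under 0.1, the threshold of the study. DESeq2 1.42.0 was an alternative. Group, population, slope and curvature fits used 51 libraries, without the pair of trials 9 and 83. Scripts were tested on simulated data. Alternatives covered the normalization, low count filter, tool, trial number and libraries. The members and gene lists were chosen with earlier results of these data known. Named members were to be the highest by r, slope, level and fold change. At most 2 higher and 2 lower are named per comparison, which is fewer than planned. Because 0 of 22456 identifiers could be matched to a symbol, the 17 gene lists and 13 marker lists could not be applied. Neither sequences nor positions were used here.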

Additional observations from a re-analysis of the deposited data

Results flagged for a closer look

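In 1 of 36 groups examined (4 measures in 9 groups), a library stood apart from the others of its group by Dixon's criterion. Chance alone meets it in about 1 group in 20. The members were chosen by their values within these groups, so that rate need not hold here. The median log2 deviation of the 122 graded members was -0.10 in the Paxton benthic social control library of trial 39, while the next lowest library of that group was at 0.16. The gap took up 0.655 of the whole range of the group, against a critical value of 0.625 for 6 libraries. Trial 39 was also the lowest trial number of that group, whose other libraries came from trials 82 to 91. The rule thus favoured genes that were low in that library.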

How the results depend on the processing

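Of the alternative values, 245 stayed within 1.5 times the reported count and 10 moved further. Those that stayed include counts of 0 that remained 0, as in the treatment comparisons. A count can also stay while its genes change. Of the 26 members called for Paxton limnetic over Paxton benthic females, 12 were also called with the 3 ranges as a factor. On trials 33 to 88 alone 12 of the 26 were called too. With trial number as a covariate, 56, 68 and 27 members were called in Paxton limnetic over Paxton benthic, Priest limnetic over Paxton benthic and Paxton limnetic over Priest limnetic females. With the 3 ranges as a factor the counts across lakes and between limnetic populations were 40 and 24, and curvature was called in 0. On trials 33 to 88 with the covariate, the benthic comparisons gave 41 and 59, for which the share of all genes is not given here. The covariate fits use the slopes by which the members were chosen, so their counts are not read as differences between populations. The list itself kept 47 members with group means within ranges subtracted (4 step, 43 graded) and 62 on trials 33 to 88 alone (0 step, 62 graded). With 1 library left out in turn, 131 to 150 members were kept, and 0 to 0 members were called in each of the 9 treatment comparisons. The ranges were chosen after seeing the data, and the causes of these moves were not tested. DESeq2, other normalization, no filter and the library of trial 72 moved no count of members by more than 1.5 times. No paired analysis was possible because the trial numbers name single fish and the groups compared share fewer than 2 of them.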

Other observations

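The jump between trials 31 and 33 reached 3 ranked genes outside the list, chosen after their values were seen, in which every value of trials 33 to 88 lay above every value of trials 10 to 31. ENSGACG00000001394 and ENSGACG00000000575 ranked 157 and 158 by r, just outside the limit. Their log2 medians differed by 1.35 and 1.31 between these ranges and then by -1.23 and -1.15 between trials 89 to 91 and trials 33 to 88. The remaining gene ranked 1767, averaged 1.38 CPM and had differences of 0.80 and -0.53.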
